A study of Mus musculus with 8 samples.

Results

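Ccl3, Ccl4 and Ccl5 are 3 secreted chemokines of the CC family, and Ccr1 is a receptor that binds Ccl3 and Ccl5. These 4 genes were taken by name from the 32285 genes of a single-cell count table of graft-infiltrating immune cells and followed in every cell type, at both days and in both graft genotypes. The cells were living CD45+ cells sorted from NIT-1 beta cell grafts, which grew under the skin of immunodeficient NOD.scid mice and were attacked by autoreactive splenocytes of diabetic NOD mice given after grafting. NIT-1 is a mouse beta cell line, and the grafts were either WT or mutant for Rnls (renalase), a gene whose loss in beta cells was the question of the study. Grafts were harvested 10 or 17 days after the transfer, and the groups were WT day 10, Rnls mutant day 10, WT day 17 and Rnls mutant day 17, with 4 grafts each. The recipients lack their own T and B cells but keep NK and myeloid cells, so the lymphocytes with rearranged receptors came from the transferred spleens, whereas a myeloid or NK cell may stem from either animal. The age and sex of the mice are not given in the sources used here, and each genotype was given as 1 line.

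Chemokines of the CC family guide leukocytes along a gradient by binding receptors that signal through inhibitory G proteins. Ccl3 and Ccl4 are made in bursts by activated myeloid and lymphoid cells, whereas Ccl5 is stored as messenger in effector CD8+ T cells and NK cells and is made by macrophages after interferon or microbial stimuli. Ccr1 is carried mainly by neutrophils, monocytes and macrophages. In autoimmune diabetes these chemokines are known from inflamed islets, where they attract T cells and myeloid cells.

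The genes of the ligands lie together in the CC chemokine cluster of chromosome 11 (GRCm38, GENCODE M21). Ccl5 (ENSMUSG00000035042.2) was at chr11:83525778-83530518 on the minus strand, Ccl3 (ENSMUSG00000000982.5) at chr11:83647844-83649355 on the minus strand and Ccl4 (ENSMUSG00000018930.3) at chr11:83662584-83664683 on the plus strand. Ccr1 (ENSMUSG00000025804.5) was at chr9:123962124-123968692 on the minus strand. The family is named for a pair of adjacent cysteines, and the coding stretch around that pair is shown for each ligand, 5′ to 3′ along the transcript, because it marks the shared core of the 3 genes. Capitals mark the pair of cysteine codons, which were codons 34 and 35 of Ccl3 and Ccl4 and codons 33 and 34 of Ccl5, and which lay in exon 2 of 3 in each gene.
Ccl3: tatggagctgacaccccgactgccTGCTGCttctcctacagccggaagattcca
Ccl4: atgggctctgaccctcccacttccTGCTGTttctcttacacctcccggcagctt
Ccl5: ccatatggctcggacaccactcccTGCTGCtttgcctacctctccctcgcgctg
Aligned over their whole coding sequences, Ccl3 and Ccl4 shared 69.8% of positions, Ccl3 and Ccl5 63.1% and Ccl4 and Ccl5 62.6%. The longest run of bases that 2 of the transcripts had in common was 13 (Ccl3 and Ccl5), so the 3 ligands could be counted apart.

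The table held 22441 cells in 12 cell types and 29 clusters named by the authors, with 350 to 1967 cells and 1742750 to 9729230 UMIs (unique molecular identifiers, 1 per captured transcript) per graft. The 4 grafts of a group were pooled into 1 library and told apart by hashtag antibodies. Genotype and library therefore cannot be told apart at either day, and the days were compared as 2 libraries against 2. WT and mutant grafts sat on opposite flanks of the same mice, but the sources used here do not tie a hashtag to a mouse. Levels are given as CPM, the UMIs of a gene among 1000000 UMIs of that cell type in that graft, for grafts that held 10 or more such cells. The marker lists of NK cells, CD8+ T cells, CD4+ T cells, macrophages, monocytes, dendritic cells, granulocytes and ILC1 were each highest in the type of that name, beta cell markers (Ins1, Ins2, Iapp) were at 2.51 CPM or less in every type, and Rnls itself could therefore check nothing in these sorted immune cells. Of 22399 barcodes, 42 occurred in 2 libraries.

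The sources of the 3 ligands differed. Over all cells, the table held 6615 UMIs of Ccl3, 44589 of Ccl4, 276573 of Ccl5 and 7020 of Ccr1. Macrophages held on average 46.2% ± 18.3 (SD, n = 16 grafts) of a graft's Ccl3 UMIs and 56.6% ± 14.0 of its Ccl4 UMIs, followed by NK cells with 15.9% ± 10.1 and 15.3% ± 12. Ccl5 came mainly from CD8+ T cells, which held 48.8% ± 14.2 of its UMIs, with 19.9% ± 13.6 in macrophages and 19.5% ± 10.9 in NK cells. Ccr1 was held by macrophages (59.6% ± 25.1), monocytes (25.6% ± 22.1) and granulocytes (10.5% ± 9.68).

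**Figure D1:**
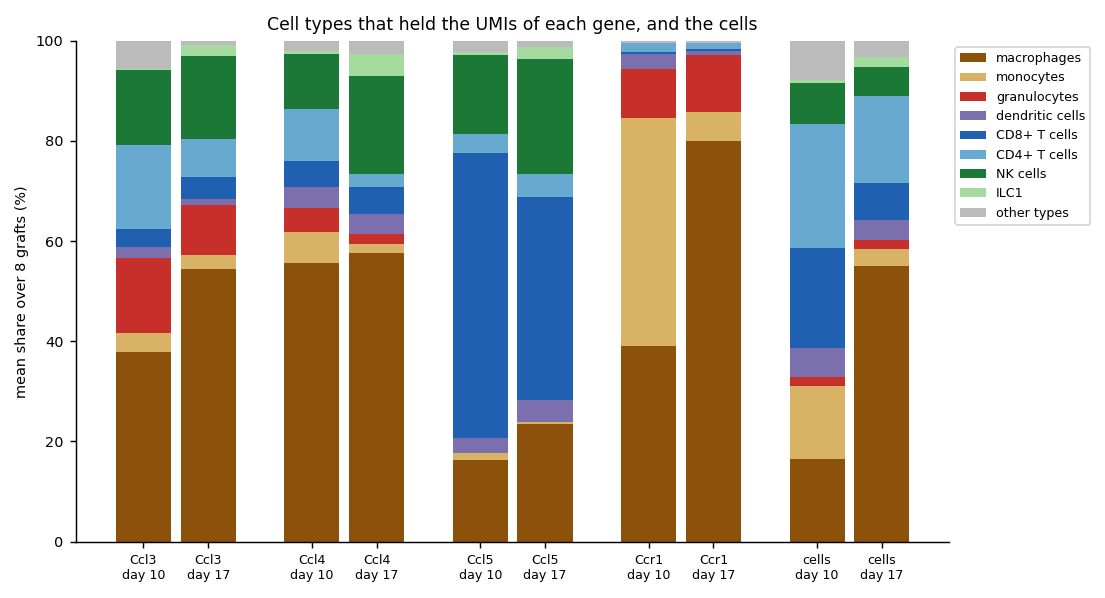
Stacked bars give the mean share (%, over 8 grafts of both genotypes) of each gene's UMIs held by each cell type at day 10 and day 17, and the last pair gives the share of cells. Macrophages went from 16.5% to 55.0% of the cells and from 39.1% to 80.0% of the Ccr1 UMIs, while the CD8+ T cell share of Ccl5 went from 56.9% to 40.7%.

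In CPM the order of cell types was another one, since a scarce cell type can be rich in a transcript. Granulocytes, the phagocytes marked here by S100a8 and S100a9, had the highest mean of Ccl3 at 1333 ± 775 CPM (SD, n = 12 grafts). They lay above NK cells (281 ± 179, n = 16) in 12 of 12 grafts that held both. NK cells lay above ILC1 (90.5 ± 131, n = 8) in 7 of 8 grafts, and ILC1 lay above macrophages (86.0 ± 44.3) in 3 of 8. Macrophages were above CD4+ T cells (80.7 ± 149) in 13 of 16 grafts, although the means were close. The CD4+ T cell mean carried 1 graft at 610.5 (WT day 17 graft 3), and the medians were 77.1 in macrophages and 35.2 in CD4+ T cells. CD8+ T cells had 37.0 ± 31.1 and dendritic cells 9.59 ± 14.1.

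For Ccl4, granulocytes and NK cells could not be ranked. Its mean was 2272 ± 2111 CPM in granulocytes and 1857 ± 1256 in NK cells, and granulocytes were higher in 6 of the 12 shared grafts. ILC1 had 1055 ± 1385, macrophages 772 ± 412 and CD8+ T cells 400.1 ± 409. CD4+ T cells held 192 ± 178 and regulatory T cells 36.1 ± 55.7.

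Ccl5 was the ligand of cytotoxic lymphocytes. CD8+ T cells had 15047 ± 2110.4 CPM and lay above NK cells (12084 ± 4544) in 14 of 16 grafts. NK cells exceeded ILC1 (3862 ± 1782) in 8 of 8 grafts. Macrophages (1443 ± 1283) and dendritic cells (1258 ± 777) did not differ beyond their spread, and CD4+ T cells had 716 ± 381. Granulocytes were last of the 10 ranked types at 188 ± 97.3.

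In droplet data, messenger set free by T cells can be counted in other cells, so Ccl5 was set against the T cell markers Cd3d, Cd3e, Cd3g and Trac. In CD8+ T cells there were 4.18 Ccl5 UMIs for each UMI of these 4 markers. Granulocytes had 3.23, from 97 Ccl5 UMIs and 30 marker UMIs in all. Macrophages had 207 and dendritic cells 226 Ccl5 UMIs per T cell marker UMI. The ratio was 31.2 in monocytes, 25.7 in NK cells and 8.73 in ILC1. The T cell marker sum in macrophages was 6.29 CPM against 3594 in CD8+ T cells. The part of free messenger in the Ccl5 of these cell types was not tested for any of them.

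Ccr1 was found on the myeloid side. Granulocytes had 1179 ± 402 CPM (n = 12), above monocytes (179.9 ± 63.3, n = 15) in 12 of 12 shared grafts. Monocytes were above macrophages (104 ± 35.7, n = 16) in 14 of 15 grafts, and macrophages above dendritic cells (17.6 ± 15.3) in 16 of 16. CD4+ T cells had 6.52 ± 5.84, CD8+ T cells 2.51 ± 3.35 and NK cells 0.94 ± 2.32. The lymphocytes that made most Ccl5 thus carried almost none of the receptor's messenger.

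**Figure D2:**
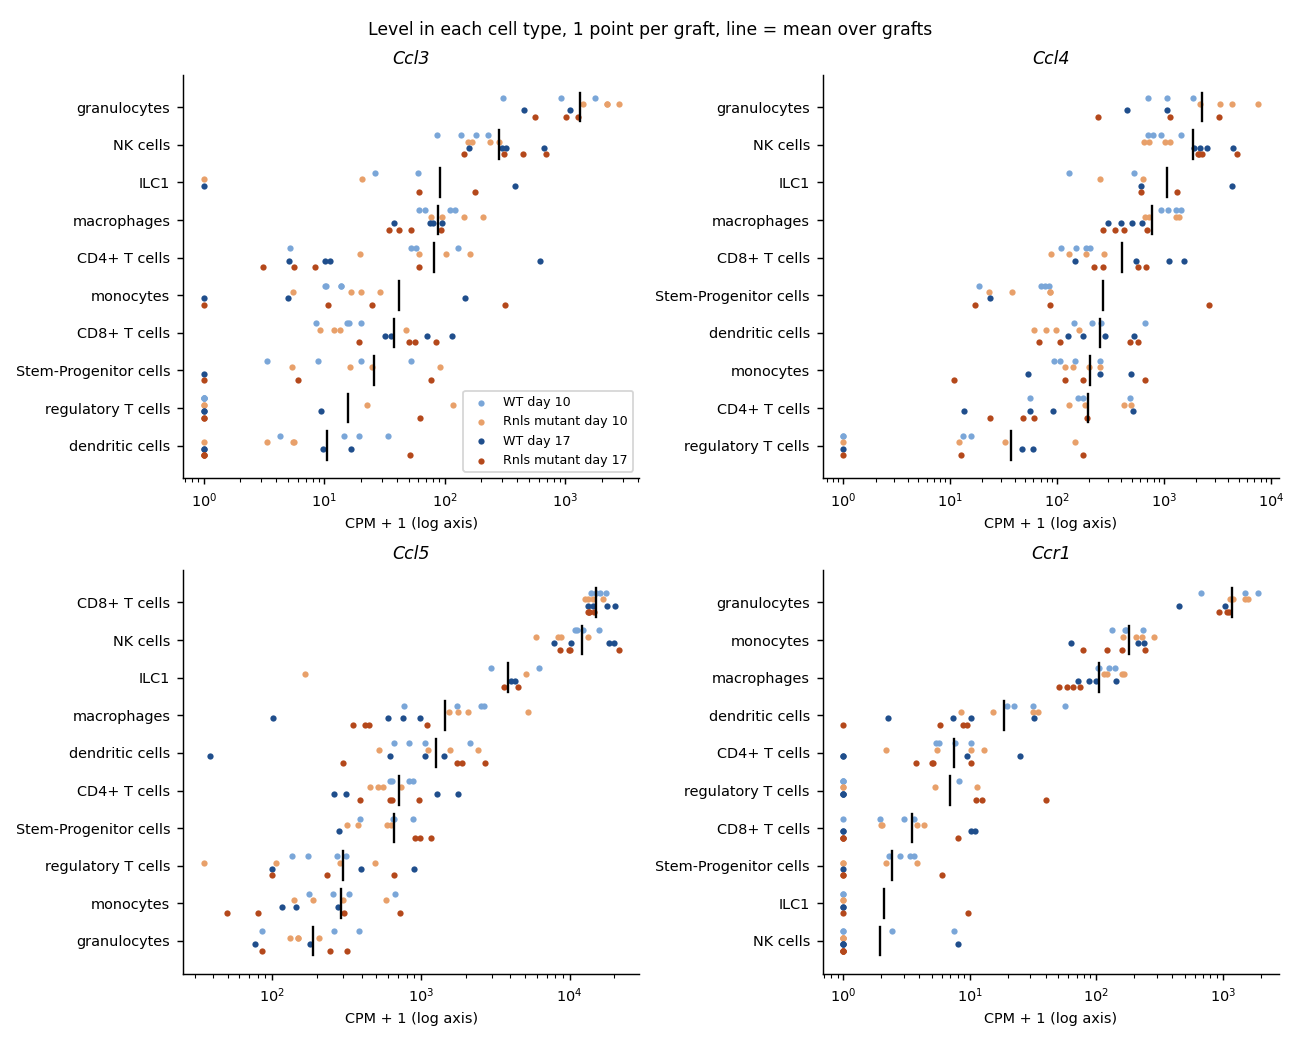
Each point is 1 graft (CPM + 1, log axis), coloured by genotype and day, and the black line is the mean over grafts that held 10 or more such cells. Granulocytes lead for Ccl3 (mean 1333), Ccl4 (2272) and Ccr1 (1179), CD8+ T cells lead for Ccl5 (15047), and the mean of Ccr1 in NK cells is 0.94.

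The share of cells with at least 1 UMI separated Ccl5 from Ccl3 and Ccl4. After each cell was thinned to 1000 UMIs, Ccl5 was found in 97.9% of 3449 CD8+ T cells (99.1% unthinned) and 93.3% of 1515 NK cells (96.7% unthinned). Ccl4 was found in 30.7% of NK cells (41.6% unthinned), 30.6% of 369 granulocytes (33.3%), 23.4% of 7179 macrophages (40.8%) and 7.77% of CD8+ T cells (13%). Ccl3 was found in 35.8% of granulocytes (38.5% unthinned), 11.8% of NK cells (18.9%) and 5.31% of macrophages (14.8%). In CD8+ T cells Ccl5 was near universal, whereas Ccl3 was seen in 1.39% of them.

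Ccr1 had at least 1 UMI in 63.4% of granulocytes (75.1% unthinned), 16% of monocytes (43.1%) and 8.52% of macrophages (29.2%) after thinning. NK cells, taken as a type that should lack it, had it in 0.13% (0.26% unthinned, 4 of 1515 cells), and CD8+ T cells in 0.20% (0.58%). The shares are limited by depth, which had a median of 3520 UMIs per cell.

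Ccl3 and Ccl4 were concentrated in few cells. The 5% of cells with the most Ccl4 held 57.5% of its UMIs in macrophages, 56.6% in NK cells and 85.9% in CD8+ T cells. For Ccl5 the same share was 15.3% in CD8+ T cells and 20.1% in NK cells. A single cell could dominate a graft, as in the CD4+ T cells of Rnls mutant day 10 graft 1, where 1 cell held 121 of 137 Ccl3 UMIs. In the CD8+ T cells of WT day 17 graft 3, 1 of 18 cells held 118 of 149 Ccl4 UMIs.

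The same cells tended to hold both Ccl3 and Ccl4. Among macrophages with Ccl3 after thinning, 66.7% also had Ccl4, against 21% of those without Ccl3. In NK cells the shares were 68.2% and 25.7%, in granulocytes 63.6% and 12.2%, in CD4+ T cells 55.2% and 2.64% and in CD8+ T cells 45.8% and 7.23%. The reverse was less complete, since Ccl3 was found in 15.1% of macrophages and 26.2% of NK cells that held Ccl4.

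The 4 genes were also unlike one another across the 10 cell types with at least 50 cells. Pearson's r of log2(mean CPM + 1) was 0.81 between Ccl3 and Ccl4 and -0.64 between Ccl5 and Ccr1, a description over 10 points that share libraries. Of 5558 genes that reached 50 CPM in a type, those most like Ccl3 were Wdtc1 (r 0.96), Pnpla2 (0.94), Tra2a (0.92), Gm43661 (0.91) and Def8 (0.91). Klf7 (0.95), Selenon (0.93), Dennd3 (0.90), Arhgef2 (0.87) and Preb (0.86) were most like Ccl4. For Ccl5 the nearest were Pik3r5 (0.86), Kcnip3 (0.85), Otud5 (0.85), Fhit (0.83) and Nr4a2 (0.83). For Ccr1 they were Oas2 (0.99), Fbxl5 (0.99), Cebpd (0.99), Trem1 (0.98), an activating receptor of neutrophils, and Gm50022 (0.98).

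Within cell types the authors' clusters differed in these genes, and this is a description because the clusters were built from the same cells. In CD8+ T cells, Ccl5 was at 26972 CPM in cluster 9 and 8934 in cluster 3 (all grafts pooled). Among dendritic cells, cluster 21, led by Fscn1, Ccl22 and Ccr7, genes of mature migratory dendritic cells, held 6281 of Ccl5. Cluster 25, led by Siglech and Ccr9, genes of plasmacytoid dendritic cells, held 1094 of Ccl4 and 107 of Ccl5. In monocytes, Ccr1 was at 216 in cluster 1 and 13.8 in cluster 14.

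Macrophages were the most divided. Cluster 4, led by Inhba, Mmp12 and Nos2, the inducible nitric oxide synthase, had 3579 CPM of Ccl5 and 146 of Ccr1. Cluster 13, led by Hspb1, Ccl7 and Ccl12, had 2674 of Ccl4 and 197 of Ccl3. Cluster 10, led by Retnla, Fcrls and Ear2, had 59.4 of Ccl5. The highest Ccl4 and the highest Ccl5 were thus in different clusters.

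**Figure D3:**
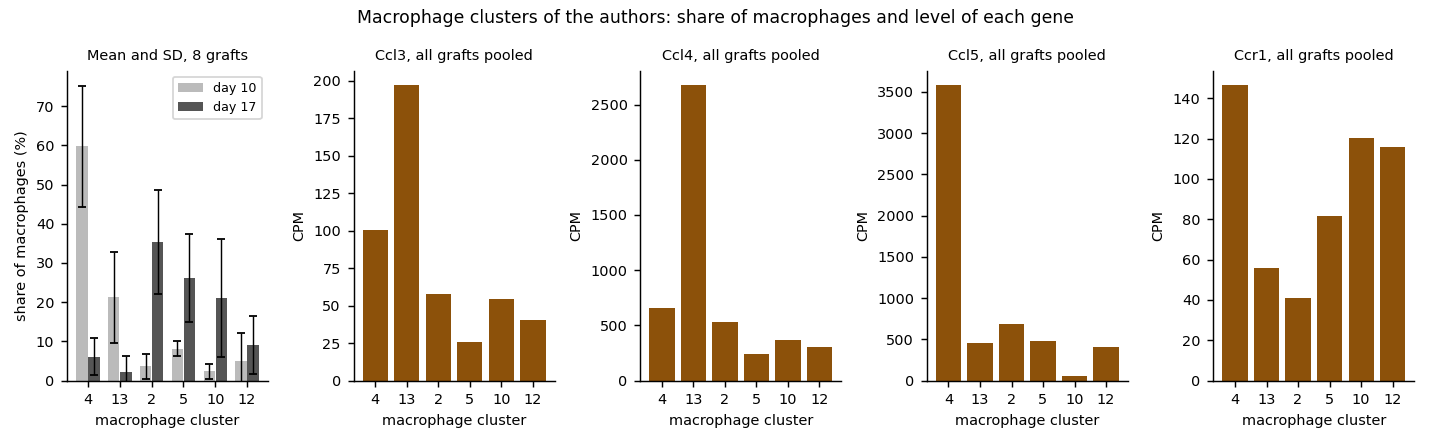
The left panel gives the share of macrophages (%, mean and SD over 8 grafts) in each of the authors' 6 macrophage clusters at both days, and the other panels the level of each gene in CPM with all grafts pooled. Cluster 4 goes from 59.7% to 6.10% of macrophages and holds the highest Ccl5 (3579), and cluster 13 goes from 21.2% to 2.17% and holds the highest Ccl4 (2674).

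The first comparison asked whether loss of Rnls in the beta cells went with another level of these genes in the infiltrating cells. It covered 16 pairs of gene and cell type set by rule, the types with the most UMIs of a gene, NK cells and all CD45+ cells together. Fold changes are Rnls mutant against WT on the log2 scale with their standard errors, from edgeR's quasi-likelihood test on UMIs summed per graft, adjusted over all genes of the fit by Benjamini-Hochberg. No pair passed an adjusted p of 0.05 at day 10, where 0 of 16 were under an unadjusted p of 0.05, or at day 17, where 3 were. DESeq2 also called 0 of 16 at each day, with 1 pair left without an adjusted p at each.

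At day 10 the share of all tested genes called between genotypes was 0.0796% in all CD45+ cells, 0.0322% in macrophages, 0.229% in CD4+ T cells, 0.0306% in NK cells, 0.314% in CD8+ T cells, 0.0% in monocytes, 0.0175% in dendritic cells and 0.971% in granulocytes. At day 17 it was 0.0159% in all CD45+ cells, 0.0% in macrophages, 0.433% in CD4+ T cells, 0.184% in NK cells, 0.376% in CD8+ T cells, 0.0% in monocytes, 0.0175% in dendritic cells and 0.216% in granulocytes. Few genes of any kind were called, and the members' count of 0 is near that background. In macrophages at day 17, edgeR called 0 of 9331 genes and DESeq2 6, and 573 were under an unadjusted p of 0.05. In monocytes edgeR called 0 at each day, with 199 and 410 under an unadjusted p of 0.05 and 3 and 0 called by DESeq2 at day 10 and day 17.

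In NK cells, the cells the study is about, the ligands did not separate the genotypes. At day 17, Ccl4 in the 4 WT grafts was 2525, 2166, 4455 and 1896 CPM, and in the 4 Rnls mutant grafts 2266, 2078, 2143 and 4788. The ranges overlapped nearly whole, and the log2 fold change was 0.01 ± 0.29 (adjusted p = 0.998, edgeR). Ccl3 in the same cells was 296, 321, 670.0 and 159 in WT and 311, 144, 442 and 686 in Rnls mutant grafts, with 0.06 ± 0.39 (adjusted p = 0.987, edgeR). Ccl5 was 18548, 10265, 19778 and 7888 in WT and 8615, 9959, 10105 and 21433 in Rnls mutant grafts, with -0.17 ± 0.28 (adjusted p = 0.924, edgeR).

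At day 10 Ccl5 in NK cells was 10838, 12392, 15887 and 11158 CPM in WT and 5970 (5969.8), 8409, 8816 and 13277 in Rnls mutant grafts. Of the mutant grafts, 3 lay below all 4 WT grafts, and the log2 fold change of -0.49 ± 0.28 did not pass (adjusted p = 0.943, edgeR). In CD8+ T cells, where Ccl5 is measured most precisely, the fold change was -0.17 ± 0.11 at day 10 (adjusted p = 0.737, edgeR) and -0.23 ± 0.11 at day 17 (adjusted p = 0.557, edgeR).

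The smallest unadjusted p of the 16 pairs was that of Ccr1 in macrophages at day 17. WT grafts had 86.9, 142, 99.3 and 70.5 CPM and Rnls mutant grafts 72.8, 58.1, 64.8 and 49.5. Of the mutant grafts, 3 lay below every WT graft, and the log2 fold change of -0.65 ± 0.18 had an unadjusted p of 0.0024 and an adjusted p of 0.637 (edgeR). At day 10 the same fold change was 0.22 ± 0.18 (adjusted p = 0.861, edgeR). The difference of these effects between days, -0.87 ± 0.26, did not pass either (adjusted p = 0.339, edgeR), where 0.0322% of genes in macrophages did.

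Granulocytes were added after their levels were seen, since WT day 17 had only 2 grafts with 10 cells of them. At day 10, Ccl4 was 1882, 1069 and 714 CPM in the 3 usable WT grafts, from 11 to 18 cells each, and 4285, 7607, 2157 and 3361 in the 4 Rnls mutant grafts, from 37 to 53 cells each. The log2 fold change of 1.85 ± 0.55 did not pass (adjusted p = 0.137, edgeR). Ccl3 was 923, 305 and 1765 in WT and 2208, 2777, 1407 and 2227 in Rnls mutant grafts, with 1.05 ± 0.42 (adjusted p = 0.310, edgeR). These were the 2 of 5 added pairs with an unadjusted p under 0.05 at day 10. Without the filter on low counts, a setting that admits genes with any UMI, both were called (adjusted p = 1.13e-07 for Ccl4 and 0.0168 for Ccl3, edgeR).

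**Figure D4:**
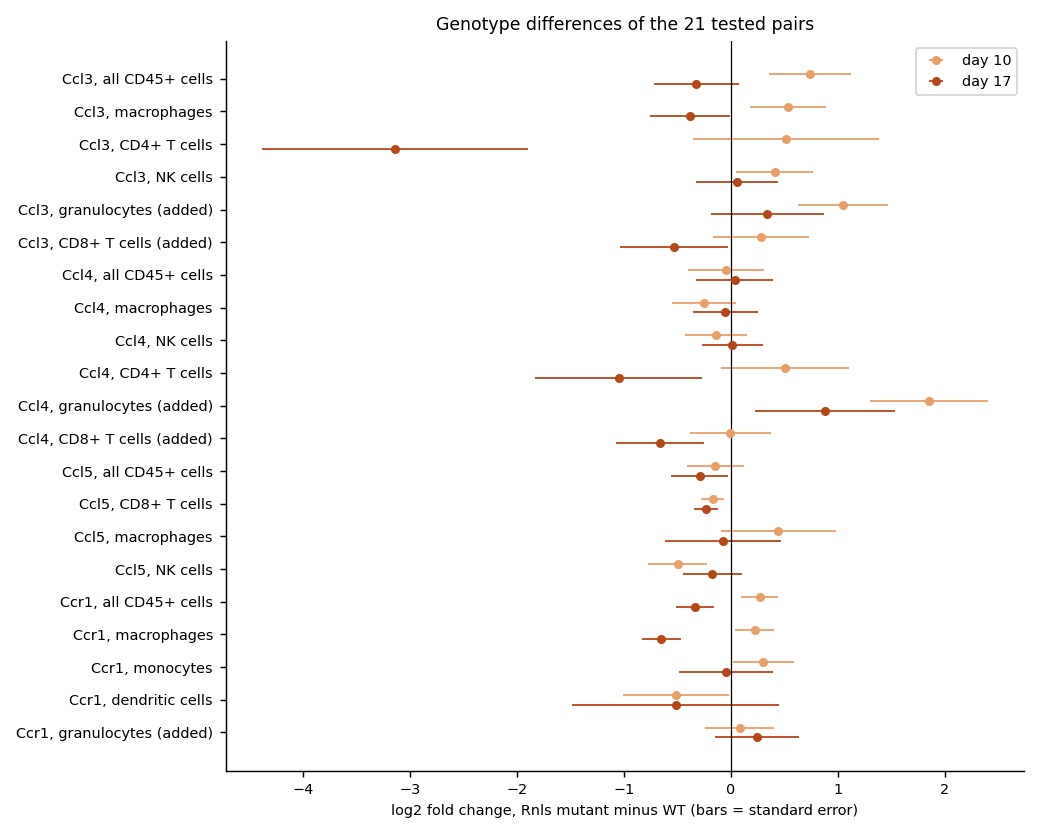
Points give the log2 fold change of Rnls mutant against WT (horizontal axis, bars are standard errors) for each of the 16 pairs set by rule and the 5 added pairs, at day 10 and day 17. Many bars cross 0, the largest positive value is Ccl4 in granulocytes at day 10 (1.85) and the most negative is Ccl3 in CD4+ T cells at day 17 (-3.14), and none passed the adjusted threshold.

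The value of -3.14 ± 1.24 for Ccl3 in CD4+ T cells at day 17 (adjusted p = 0.433, edgeR) rested on 1 graft. WT graft 3 had 610.5 CPM, while the other WT grafts had 9.20, 4.11 and 10.1 and the Rnls mutant grafts 7.35, 2.07, 60.0 and 4.65. Without WT graft 3 the fold change was 1.07. With all grafts kept and no filter on genes with low counts, Ccl3 in CD4+ T cells was called (adjusted p = 1.21e-37, edgeR). The genotypes overlapped, so this p does not measure the spread between grafts.

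The second comparison was day 17 against day 10, taken as the mean over both genotypes. Here 9 of the 16 pairs passed, 2 higher and 7 lower at day 17, 10 were under an unadjusted p of 0.05, and DESeq2 called 9. The days differed in much of the transcriptome, with 57.6% of genes called in all CD45+ cells, 50.9% in macrophages, 36.6% in CD4+ T cells, 12.9% in NK cells, 21.4% in CD8+ T cells, 14.4% in monocytes, 27.1% in dendritic cells and 8.74% in granulocytes. Since only 2 libraries stood for a day, a day and its libraries cannot be told apart.

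In macrophages all 4 genes fell, against a background of 25.3% of genes called lower. Ccl5 fell most, by 2.08 ± 0.40 on the log2 scale (adjusted p = 0.00033, edgeR). Its levels at day 10 ran from 767 to 5236 CPM with a median of 1926, and at day 17 from 99.4 to 1092 with a median of 522, so that 6 of 8 grafts at day 17 lay below every graft at day 10. Ccl4 went from a median of 1192 (659 to 1442) to 407 (269 to 699), with 7 of 8 grafts below every graft at day 10, and fell by 1.46 ± 0.22 (adjusted p = 3.18e-05, edgeR). Ccl3 fell by 1.02 ± 0.26 (adjusted p = 0.00327, edgeR), from a median of 102 (60.1 to 206) to 62.6 (33.4 to 93.2).

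Ccr1 in macrophages went from a median of 122 CPM (102 to 165) to 71.7 (49.5 to 142) and fell by 0.87 ± 0.13 (adjusted p = 3.12e-05, edgeR). At day 17, 7 of 8 grafts lay below every graft at day 10. The exception was WT day 17 graft 2. In dendritic cells Ccr1 fell by 1.68 ± 0.51 (adjusted p = 0.0189, edgeR) from a median of 25.9 to 7.13, but this call was lost without WT day 17 graft 3 (-1.27, adjusted p = 0.0506) or without Rnls mutant day 17 graft 1 (-1.58, adjusted p = 0.0534). In monocytes the log2 fold change of Ccr1 was -0.50 ± 0.26 (adjusted p = 0.206, edgeR), and without WT day 17 graft 3 it was -0.94 (adjusted p = 0.00862, edgeR).

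The mix of macrophages moved with these values, since cluster 4 held 59.7% ± 15.5 of macrophages at day 10 and 6.10% ± 4.73 at day 17, and cluster 2, led by Apoe, Ccl8 and Selenop, 3.60% ± 3.1 and 35.4% ± 13.3. Cluster 5, led by Abca1, Gab1 and Pid1, was the macrophage cluster with at least 10 cells in all 16 grafts, and its days were compared by exact permutation tests added after the values were seen, 9 such tests in all with those in CD8+ T cells. The WT and mutant grafts of a day may share mice, whereas the arrangements treat the grafts as independent, so these p-values may be too small. Ccr1 in cluster 5 was 184 ± 44.1 CPM at day 10 and 64.6 ± 32.4 at day 17 (n = 8 and 8, two-sided exact permutation p = 0.000155, the smallest that 12870 arrangements can give, adjusted p = 0.0014). Ccl5 in cluster 5 was 442 ± 221 at day 10 and 478 ± 277 at day 17 (exact permutation p = 0.777, adjusted p = 0.777). Ccl4 was 292 ± 273 and 228 ± 101.0 (exact permutation p = 0.534, adjusted p = 0.687) and Ccl3 31.5 ± 45.0 and 23.6 ± 11.3 (exact permutation p = 0.701, adjusted p = 0.777). Of the 4 genes, Ccr1 passed in this cluster, which is 1 of 6. Its 8 grafts of a day held 182 cells in all at day 10 and 1515 at day 17. At day 10 these grafts ran from 0 to 692 CPM for Ccl4 and from 0 to 125 for Ccl3. With so wide a spread, the tests of Ccl3 and Ccl4 cannot tell an unchanged level from a fall.

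In cluster 4 itself, Ccl5 was 3304 ± 1315 CPM in 8 grafts at day 10 and 2712 ± 855 in 5 grafts at day 17, and Ccl4 was 666 ± 238 and 311 ± 365.4. Ccr1 in cluster 4 was 158 ± 28.3 and 83.5 ± 35.8 in the same grafts. In cluster 2, Ccr1 was 43.0 ± 36.1 in 3 grafts at day 10 and 48.5 ± 31.0 in 8 grafts at day 17, and in cluster 12 it was 99.1 ± 2.67 in 3 grafts and 94.1 ± 44.4 in 6. Outside cluster 5 these differences were not tested, because few grafts kept 10 cells of each cluster at both days.

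In NK cells Ccl4 and Ccl3 rose, against a background of 6.34% of genes called higher. Ccl4 ran from 645 to 1445 CPM at day 10 with a median of 860.5, and from 1896 to 4788 at day 17 with a median of 2216. The days did not overlap, and the log2 fold change was 1.54 ± 0.21 (adjusted p = 1.18e-05, edgeR). Ccl3 went from a median of 173 (85.1 to 279) to 316 (144 to 686), with 6 of 8 grafts at day 17 above every graft at day 10, and rose by 1.03 ± 0.27 (adjusted p = 0.0109, edgeR). Ccl5 in the same cells did not pass, at 0.27 ± 0.20 (adjusted p = 0.408, edgeR), with medians of 10998 and 10185.

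The share of NK cells with these genes moved the same way. After thinning, 24.6% ± 3.51 of NK cells held Ccl4 at day 10 and 52.7% ± 5.42 at day 17 (8 grafts each), and Ccl3 was in 9.86% ± 2.59 and 19.4% ± 4.42. Cells with Ccl4 held on average 3.78 thinned UMIs at day 10 and 5.48 at day 17. A graft held 53 to 261 NK cells at day 10 and 13 to 79 at day 17. In these cells the sum of 5 macrophage markers had a median of 42.1 CPM at day 10 and 111 at day 17, against 6575 in macrophages at day 17, and the sum of 4 T cell markers 386 and 616, and their part in the result was not tested.

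CD8+ T cells were added after their levels were seen. Ccl4 rose by 1.75 ± 0.28 on the log2 scale (adjusted p = 4.23e-05, edgeR), from a median of 168 CPM (87.3 to 273) to 560.3 (145 to 1539), and Ccl3 by 1.79 ± 0.35 (adjusted p = 0.000411, edgeR), from 13.4 (7.58 to 46.6) to 52.6 (18.3 to 115). The background called higher was 10.6% of genes. For both genes 5 of 8 grafts at day 17 lay above every graft at day 10. Day 17 libraries held 18 to 143 CD8+ T cells per graft, against 258 to 443 at day 10.

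Much of the CD8+ T cell signal lay in 44 cells of cluster 26, which Ccl4 itself leads, together with Tox and Cd69, genes of chronic and recent antigen stimulation. They held 43.7% of the Ccl4 UMIs of CD8+ T cells at day 10 and 70.2% at day 17, and 12% and 65% of the Ccl3 UMIs. Without this cluster Ccl4 was 93.7 ± 38.1 CPM at day 10 and 189 ± 74.7 at day 17, and Ccl3 15.1 ± 12.8 and 24.5 ± 17.8. These values are a description and no p is given for them, although they count among the 9 tests, because Ccl4 itself helped to form the cluster left out. In cluster 3, the CD8+ T cell cluster with at least 10 cells in all 16 grafts, which the cells grouped in cluster 26 are likewise not part of, Ccl4 was 72.2 ± 26.1 and 204 ± 141 (exact permutation p = 0.00249, adjusted p = 0.0112). Ccl3 there was 9.25 ± 8.44 and 16.8 ± 15.1 (exact permutation p = 0.242, adjusted p = 0.368), and Ccl5 8769 ± 671 and 9458 ± 702 (exact permutation p = 0.0651, adjusted p = 0.147). The clustering that set cluster 26 apart also bounds cluster 3. These p-values therefore cover the cells of cluster 3 alone and cannot speak for CD8+ T cells outside cluster 26. The sum of macrophage markers in CD8+ T cells had a median of 30.6 at day 10 and 143 at day 17, and its part was not tested.

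Ccl5 in CD8+ T cells as a whole stayed within the spread of the grafts. It ran from 12786 to 17662 CPM at day 10 (mean 14972 ± 1712) and from 13360.4 to 20321 at day 17 (15121 ± 2569), and the log2 fold change of -0.11 ± 0.08 did not pass (adjusted p = 0.334, edgeR), though without the filter on low counts it did, at -0.24 (adjusted p = 0.0108). With library totals in place of TMM the log2 fold change was 0.017, so its direction depended on the scaling. The days overlapped, and all 8 grafts at day 17 lay above the lowest graft at day 10.

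**Figure D5:**
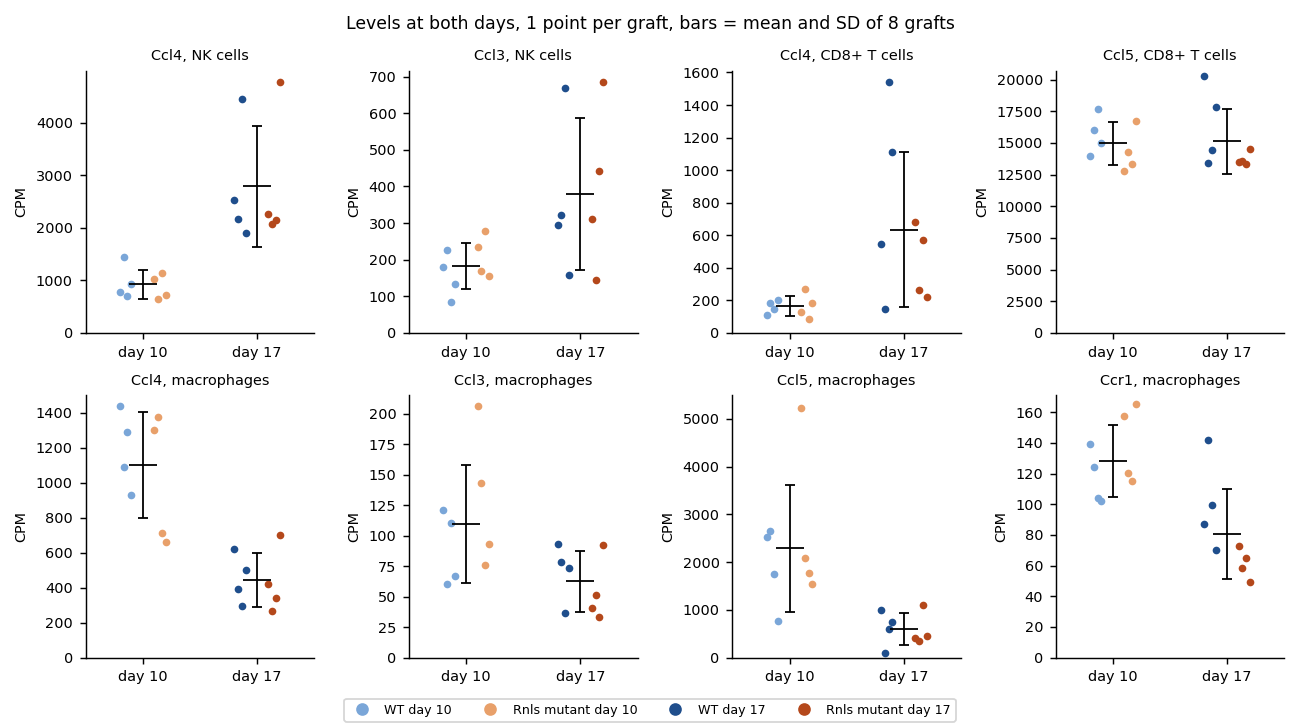
Each point is 1 graft in CPM (vertical axis from 0), coloured by genotype and day, and bars give the mean and SD of the 8 grafts of a day. Ccl4 in NK cells is separated between days (645 to 1445 against 1896 to 4788), the 4 genes in macrophages are lower at day 17, and Ccl5 in CD8+ T cells overlaps.

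In all CD45+ cells together, Ccl3 and Ccl4 did not pass, with log2 fold changes of 0.12 ± 0.27 (adjusted p = 0.732, edgeR) and 0.04 ± 0.25 (adjusted p = 0.896, edgeR). Ccl5 fell by 0.91 ± 0.19 (adjusted p = 0.000662, edgeR), from a median of 3440.2 to 1789 CPM, while CD8+ T cells went from 20.1% ± 2.14 to 7.55% ± 3.11 of the cells. Ccr1 fell by 0.32 ± 0.12 (adjusted p = 0.035, edgeR), from a median of 73.8 to 58.1. This call was lost when library totals replaced TMM (adjusted p = 0.0759) and in 10 of 16 fits that left out 1 graft, with adjusted p up to 0.0744. The cells that carried the receptor changed at the same time, with monocytes holding 45.4% ± 11.9 of a graft's Ccr1 UMIs at day 10 and 5.76% ± 2.99 at day 17, and macrophages 39.1% ± 13.1 and 80.0% ± 15.0. Cell shares were not tested, and in the sums over all cells fewer cells of a type and less RNA per cell cannot be told apart.

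In CD4+ T cells neither ligand passed, with -0.38 ± 0.81 for Ccl3 (adjusted p = 0.755, edgeR) and -1.19 ± 0.49 for Ccl4 (adjusted p = 0.0607, edgeR). Without WT day 17 graft 3, which stood apart in both, both fell (adjusted p = 0.00526 and 0.000974, edgeR). Ccl4 was also called without any 1 of 3 other grafts, with adjusted p up to 0.042. With all grafts kept and no filter on genes with low counts, both were called lower at day 17 (-0.46, adjusted p = 0.0166 for Ccl3 and -1.27, adjusted p = 2.68e-28 for Ccl4, edgeR). In granulocytes, the 5 usable grafts at day 17 and 7 at day 10 gave -0.82 ± 0.34 for Ccl3 (adjusted p = 0.126, edgeR), -0.98 ± 0.43 for Ccl4 (adjusted p = 0.146, edgeR) and -0.52 ± 0.25 for Ccr1 (adjusted p = 0.195, edgeR). Ccl3 was called without WT day 10 graft 3 (-1.02, adjusted p = 0.0412), and Ccl4 without Rnls mutant day 17 graft 4 (-1.49, adjusted p = 0.0354) or without the filter on low counts (-0.99, adjusted p = 0.0243).

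Genes of the same pathway were followed as lists in the macrophage, NK and CD8+ T cell fits between days, where 50.9%, 12.9% and 21.4% of all genes tested were called in either direction. Of the other ligands of Ccr1 (Ccl6, Ccl7, Ccl9), 2 of 3 tested rose in macrophages and 0 fell, with Ccl9 at 0.99 ± 0.22 (adjusted p = 0.0011) and Ccl6 at 0.74 ± 0.21 (adjusted p = 0.00688, both edgeR). They moved opposite to Ccl3, Ccl4 and Ccl5 in these cells. Of the further receptors and scavengers (Ccr3, Ackr1, Ackr2, Ccrl2), 1 was tested in macrophages, and Ccrl2, a receptor without known G protein signaling, fell by 1.00 ± 0.20 (adjusted p = 0.00063, edgeR).

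Of the cytokines that activated lymphocytes release with these chemokines (Xcl1, Ifng, Tnf, Csf2, Lta), 0 of 2 tested passed in NK cells, where Ccl3 and Ccl4 rose (0 at an unadjusted p of 0.05). In CD8+ T cells 1 of 3 passed, and Xcl1, a chemokine for cross-presenting dendritic cells, fell by 1.10 ± 0.40 (adjusted p = 0.0493, edgeR). The granule cargo list (Srgn, Gzma, Gzmb, Gzmk, Prf1, Nkg7) had 1 of 5 higher in NK cells, Nkg7 at 0.53 ± 0.13 (adjusted p = 0.00784, edgeR), and 2 of 6 lower in CD8+ T cells, Gzma by 1.80 ± 0.20 and Gzmb by 1.50 ± 0.20. In macrophages 3 of 3 tested were lower, of which Gzma (8.70 CPM, against 2968 in CD8+ T cells) and Gzmb (2.99 against 1715) are transcripts of lymphocytes, and the third was Srgn. The T cell marker sum in macrophages had a median of 9.77 CPM at day 10 and 3.63 at day 17, none of the 4 markers was at 0 over all grafts, and the part of lymphocyte messenger in these falls was not tested.

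Of the signaling list (Gnai2, Rac2, Dock2, Elmo1, Pik3r5 and 10 others), 7 of 14 rose and 3 fell in macrophages, with Pik3r5, a regulatory subunit of the kinase PI3K gamma, at 1.00 ± 0.12, Dock2 at 0.86 ± 0.11, Elmo1 at 0.79 ± 0.09 and Gnb1 at 0.35 ± 0.07. In NK cells 1 of 13 rose, the GTPase Rac2 at 0.52 ± 0.11 (adjusted p = 0.00293, edgeR), and in CD8+ T cells 6 of 14 rose and 2 fell. Of the transcription and decay regulators, 4 of 16 rose and 1 fell in NK cells. The immediate early genes Nr4a1 (1.49 ± 0.22) and Egr1 (1.54 ± 0.24) and the NF-kB inhibitor Tnfaip3 (0.71 ± 0.17) rose there, and Irf7, an interferon-induced factor, fell by 1.12 ± 0.23. These rises were not particular to NK cells. Nr4a1, Egr1 and Tnfaip3 also rose in CD4+ T cells (1.37 ± 0.11, 1.58 ± 0.15 and 1.39 ± 0.10), where neither Ccl3 nor Ccl4 passed. Nr4a1 rose in monocytes (1.78 ± 0.29), dendritic cells (1.89 ± 0.22) and granulocytes (1.00 ± 0.30) too. In CD8+ T cells 4 of 16 rose and 4 fell, with Nr4a1 at 1.17 ± 0.18, Tnfaip3 at 1.01 ± 0.12 and Zfp36, which speeds the decay of chemokine messengers, at 1.72 ± 0.24. In macrophages 4 of 16 rose and 5 fell, with Irf7 lower by 1.98 ± 0.18, Runx3 by 1.48 ± 0.21 and Irf8 by 0.91 ± 0.10.

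Between genotypes, 1 gene of the 6 lists was called. Ccl6, a ligand of Ccr1 made here mainly by macrophages (2800 CPM, against 29.3 in CD8+ T cells), was lower in CD8+ T cells of Rnls mutant grafts at day 10 (fell by 1.40 ± 0.25, adjusted p = 0.0038) and higher at day 17 (1.91 ± 0.29, adjusted p = 0.000264), and higher in CD4+ T cells at day 17 (1.46 ± 0.21, adjusted p = 0.000259, all edgeR). The sum of 5 macrophage markers in CD8+ T cells moved the same way, with medians of 44.6 CPM in WT and 16.9 in Rnls mutant grafts at day 10 and 65.0 and 247 at day 17, and its part in the Ccl6 result was not tested.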

How the data were processed

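CD45+ cells of WT and Rnls mutant NIT-1 grafts were measured by droplet RNA sequencing (10x 3′ v3.1). The authors deposited raw counts, that is UMIs per gene and cell, made with Cell Ranger on mm10 per the submitters' processing notes (version not given in the sources used here), and a library, hashtag, cluster and cell type for each cell, all used as deposited. No UMI lies outside a named gene, and 3′ counting cannot tell isoforms apart.

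The replicate was the graft (library and hashtag). UMIs were summed per graft and cell type, a graft entered only where it held 10 or more such cells, and edgeR 4.0.16 (quasi-likelihood F test after TMM and filterByExpr, in R 4.3.3) compared the sums, all 4 groups in 1 fit, with Benjamini-Hochberg adjustment over all genes and a threshold of 0.05. Standard errors come from the fit. Nothing says that grafts were separate experiments, so p-values of the fits with the filter measure the spread between these grafts. They may be too small between days, where grafts of 1 day may share mice. Those of fits without the filter are not read as a measure of that spread. Levels within clusters were compared by two-sided exact permutation tests (NumPy 2.4.6). Alternatives were DESeq2 1.42.0, library totals, no filter, 1 or 20 cells per graft, each day alone, the hashtag number as a block, each graft left out and, for doublets, for which no caller was run, the 5% of cells with the most UMIs left out (1144 cells). The scripts were tested on simulated data. The pairs of gene and cell type were the 3 types with the most UMIs of a gene among those with 10 cells in 3 grafts of each group, NK cells for the ligands and all cells. Genes were named as the 4 members, the 5 genes most like each, and up to 4 genes per list that passed, of which 1 is not reported here. The members and lists were chosen with earlier results of these data known. Gene positions and coding sequences came from GENCODE M21 (GRCm38).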

Additional observations from a re-analysis of the deposited data

Results flagged for a closer look

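Within groups of 4 grafts, 74 groups of a gene and population were looked through for a graft that stood apart by Dixon's criterion. This criterion asks whether the gap to the nearest graft is too large a part of the group's range, and 9 groups held such a graft. Independent, normally distributed values would give about 1 in 20 groups. That rate may not hold here, since the same grafts recur among the groups and a single cell can dominate a graft. WT day 17 graft 3 stood apart in CD4+ T cells with 610.5 CPM of Ccl3 and 510.4 of Ccl4. Rnls mutant day 17 graft 4 stood apart in NK cells, with 4788 of Ccl4 and 21433 of Ccl5, and in CD8+ T cells with 14558 of Ccl5. Rnls mutant day 17 graft 3 had 60.0 of Ccl3 in CD4+ T cells and 1092 of Ccl5 in macrophages. In Rnls mutant day 10 grafts, macrophages of graft 1 had 5236 of Ccl5 and CD8+ T cells of graft 2 had 46.6 of Ccl3. The cause was not tested for any of them.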

How the results depend on the processing

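In the fits of whole populations, the falls of all 4 genes in macrophages and of Ccl5 in all CD45+ cells passed under every alternative run. So did the rises of Ccl3 and Ccl4 in NK and CD8+ T cells, and DESeq2 gave the same call for all 21 pairs between days. Inside clusters fewer passed. In macrophage cluster 5 Ccr1 passed and Ccl3, Ccl4 and Ccl5 did not. That cluster had 182 cells at day 10, so for Ccl3 and Ccl4 a fall could have been missed. In CD8+ T cell cluster 3 Ccl4 passed and Ccl3 did not. No genotype call was made for the 16 pairs with the filter on. Without it 1 of 16 pairs passed at day 10 (Ccl4 in CD4+ T cells) and 2 at day 17 (Ccl3 and Ccl4 in CD4+ T cells), besides Ccl3 and Ccl4 in granulocytes at day 10 and Ccl4 in CD8+ T cells at day 17 among the 5 added pairs. Between days, 5 of the 21 pairs gained a call without it, Ccl3 and Ccl4 in CD4+ T cells, Ccl5 in CD8+ T cells, Ccr1 in monocytes (adjusted p = 0.0200, edgeR) and Ccl4 in granulocytes. Calls gained without the filter are not read as differences beyond the spread of the grafts. They include Ccl3 in CD4+ T cells at day 17, where the genotypes overlapped (adjusted p = 1.21e-37, edgeR). The following fold changes, none of them called, changed sign (log2), and the cause was not tested. With library totals, Ccl4 at day 17 was -0.027 in all CD45+ cells and -0.0029 in NK cells, Ccr1 in granulocytes at day 10 -0.00064, Ccl4 in CD8+ T cells at day 10 0.036 (0.016 with DESeq2) and Ccl5 in CD8+ T cells between days 0.017. Without the filter Ccl4 in NK cells at day 17 was -0.024. With 20 cells per graft, Ccl3 and Ccl4 in NK cells at day 17 were -0.11 and -0.12 and Ccr1 in monocytes 0.10, and the Ccl4 level in ILC1 was 2845 CPM. With 1 cell, at day 17, Ccr1 in monocytes was 0.14, and Ccl3 and Ccl4 in granulocytes -1.06 and -0.65. Without the 5% of cells with the most UMIs, Ccl3 in CD4+ T cells between days was 1.63, Ccl4 in macrophages and Ccr1 in monocytes at day 17 0.014 and 0.20, and Ccr1 in granulocytes and Ccl3 in CD8+ T cells at day 10 -0.17 and -0.28. Same-numbered grafts of a day correlated from -0.24 to 0.38 and grafts of different number from -0.30 to 0.29. With so few grafts this cannot decide whether equal hashtag numbers mark the same mouse. With the number as a replicate block, Ccl3 in NK cells at day 17 was -0.050, Ccl4 -0.061 in all CD45+ cells and -0.0036 in NK cells, Ccl5 in macrophages 0.14 and Ccr1 in monocytes 0.31, and no member's call changed. No paired analysis was possible for the days because a number is nested in a day. With a pseudocount of 10, 3 of the 5 genes most like Ccl5 and 2 of those most like Ccr1 stayed.

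Leaving out 1 graft at a time gave, for Rnls mutant against WT at day 10, ranges of -0.35 to 0.24 for Ccl4 in all CD45+ cells, -0.27 to 0.11 for Ccl4 in NK cells, -0.13 to 0.66 for Ccl5 in macrophages, -0.22 to 0.34 for Ccr1 in granulocytes, and -0.43 to 0.52 for Ccl3 and -0.31 to 0.22 for Ccl4 in CD8+ T cells. At day 17 the ranges were -4.81 to 1.07 for Ccl3 and -1.86 to 0.58 for Ccl4 in CD4+ T cells, -0.27 to 0.52 for Ccl3, -0.36 to 0.38 for Ccl4 and -0.56 to 0.070 for Ccl5 in NK cells, -0.32 to 0.22 for Ccl4 in all CD45+ cells, -0.39 to 0.13 for Ccl4 and -0.57 to 0.24 for Ccl5 in macrophages, -0.64 to 0.74 for Ccr1 in monocytes, -1.26 to 0.51 for Ccr1 in dendritic cells, -0.96 to 0.23 for Ccl3 in CD8+ T cells, and -0.26 to 0.97 for Ccl3, -0.13 to 1.74 for Ccl4 and -0.17 to 1.07 for Ccr1 in granulocytes. Between days they were -0.11 to 0.26 for Ccl3 and -0.13 to 0.19 for Ccl4 in all CD45+ cells, and within macrophage cluster 5 -0.64 to 0.37 for Ccl3 and -0.077 to 0.30 for Ccl5. Counts over all genes between genotypes moved most. At day 10, all CD45+ cells had 10 calls with edgeR and 86 with DESeq2, macrophages 3 and 16, NK cells 1 and 5, and CD4+ T cells 18 and 51. Without the filter CD4+ T cells had 86 at day 10, and 124 against 34 at day 17. With the block, CD8+ T cells had 65 at day 10 against 20. In granulocytes 81 genes were called between days, and 39 with 1 cell per graft.

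Grafts held down to 13 NK cells, 18 CD8+ T cells and 10 granulocytes, which limits what these tests can show.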
